A study of Rattus norvegicus with 12 samples.

Results

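Renal amino acid transporters carry filtered amino acids back from the tubular fluid into the blood, and 8 genes listed under this name were followed here. They include the heavy chains Slc3a1 and Slc3a2, the light chains Slc7a9, Slc7a7, Slc7a8 and Slc7a10, and the brush border carrier Slc6a19. Slc7a4, whose substrate is not settled, was also listed. The members were given by name, and their probes were every non-control array row whose gene name or accession led to one of them. Probes were found for 7 of the 8 genes, 8 probes in all, out of 35529 genes or unmatched transcripts and 41012 probes on the array. Slc7a10 had 2 probes and the other 6 genes had 1 each. No row of the array led to Slc6a19, so its level was not analysed here. Slc7a4 was matched by a symbol marked as predicted in the array file, and the other 6 by accession.

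The study measured RNA of kidney cortex 24 h after cephaloridine, a cephalosporin antibiotic that injures the proximal tubule, to compare doses below and above toxicity. There were 4 groups of 3 rats, 1 array per rat: control animals given saline alone (0 mg/kg), and animals given a low (150 mg/kg), a middle (300 mg/kg) or a high dose (600 mg/kg). All 12 animals were male Fisher 344 rats, 8 weeks old, and each received a single intravenous injection, so the controls share the strain, sex, age, injection and saline with the dosed animals. The tissue was whole cortex, a mixture of tubule segments, glomeruli, vessels and immune cells; in such bulk RNA, fewer cells of a type and less RNA per cell cannot be told apart.

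Most of these carriers work as pairs. A heavy chain that crosses the membrane once is joined by a disulphide bond to a light chain that forms the transport path, and the light chain needs the heavy chain to reach the cell surface. Slc3a1 with Slc7a9 takes up cystine and dibasic amino acids across the brush border, and loss of either gene causes cystinuria, while Slc3a2 with Slc7a7 or Slc7a8 passes dibasic and neutral amino acids out across the basolateral side.

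The start regions of 3 measured members are shown, those whose windows held bases outside the gene itself. They are Slc3a2 and its partners Slc7a8 and Slc7a10. The windows of Slc3a1, Slc7a9 and Slc7a7 held no such bases. At the highest dose Slc3a2 and Slc7a8 were lower, and the brighter probe of Slc7a10 was higher. The sequences come from RefSeq on the build GRCr8 and run 5′ to 3′ on the gene's strand up to the annotated start, limited to bases outside the gene itself. They lie at chr1:215048065-215048314 on the minus strand for Slc3a2, at chr15:32212716-32212965 on the minus strand for Slc7a8 and at chr1:96965872-96966029 on the plus strand for Slc7a10. Capitals mark matches, on either strand, to GGGCGG (a GC box) and, in Slc3a2 alone, to TGACGT (one arm of a cAMP response element).
Slc3a2: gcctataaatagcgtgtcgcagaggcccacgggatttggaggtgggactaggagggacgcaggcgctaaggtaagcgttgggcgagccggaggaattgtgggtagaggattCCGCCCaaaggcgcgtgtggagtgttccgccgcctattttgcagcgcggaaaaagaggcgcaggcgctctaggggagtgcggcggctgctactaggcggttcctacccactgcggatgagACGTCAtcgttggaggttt
Slc7a8: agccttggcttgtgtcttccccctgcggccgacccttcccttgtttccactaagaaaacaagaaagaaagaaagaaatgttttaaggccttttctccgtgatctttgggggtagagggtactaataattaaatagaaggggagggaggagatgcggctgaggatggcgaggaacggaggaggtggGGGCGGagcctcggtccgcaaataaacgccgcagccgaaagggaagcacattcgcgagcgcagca
Slc7a10: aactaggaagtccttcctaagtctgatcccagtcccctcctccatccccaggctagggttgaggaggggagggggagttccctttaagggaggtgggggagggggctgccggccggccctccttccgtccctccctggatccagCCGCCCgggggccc
All 3 regions hold a GC box. The letters GGGCGG occur in the 250 bases before the start in 30.5% of 33469 RefSeq rat promoters, and TGACGT in 6.95%. The window of Slc7a9 (chr1:97246632-97246881) is on the same chromosome and strand as that of Slc7a10, and the window of Slc7a7 (chr15:31835684-31835933) is on those of Slc7a8. Guanine and cytosine made up 60.8% of the printed region of Slc3a2, 53.6% for Slc7a8 and 67.7% for Slc7a10, against a median of 51.2% over all promoters. Over the 8 windows held for the members, 4 had GGGCGG and 1 had TGACGT. These windows include one at a second annotated start of Slc3a2, and Slc7a4 had no window. The antioxidant response core TGACNNNGC was in 3 of the 8 windows and in 10.1% of all promoters. The partial site GTTAAT of HNF1, a proximal tubule transcription factor, was in 1 window, that of Slc6a19, and in 6.45% of all. The composite TGATGNAA, bound by ATF4 with C/EBP proteins, was in none of the 8 windows and in 3.4% of all. None of the motifs overlapped another in the printed regions, the motifs were chosen after the sequences had been seen, and a match describes letters only.

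The 12 arrays were alike in signal: median signals ran from 59 to 68.6 intensity units, 59.2% to 63.2% of probes were well above background, and 0 spots were saturated. Values below are log2 signals relative to the 75th percentile of the array, so a difference of 1 is a doubling, and a level can be set against other arrays for the same probe but not against another probe. Of the 35529 genes, limma tested the 20760 whose signal cleared background on each of the 3 arrays in 1 or more groups. A gene was called at an adjusted p under 0.05, and the error given with a change is its standard error from limma, n = 3 animals a group. The array slides were not balanced. Slide 1 held controls 1 to 3 and low 1, slide 2 held low 2 and middle 1, slide 3 held low 3 and middle 2, and slide 4 held middle 3 and all 3 high animals. Controls and high animals never shared a slide, so the fit with slide as a block reaches from one to the other only through the low and middle arrays. Its median standard error at 600 mg/kg was 0.154, against 0.0757 without the block, and it called 584 of the 20760 genes in place of 7224.

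At 600 mg/kg, all 4 chains of the paired carriers Slc3a1 with Slc7a9 and Slc3a2 with Slc7a7, and also Slc7a8, were lower than in controls, with the largest falls in the basolateral light chains Slc7a7 (1.81-fold) and Slc7a8 (1.47-fold). The brighter of the 2 probes of Slc7a10 was 1.90-fold higher (0.93 on the log2 scale); its second probe changed by 0.17 and was not called, and the mean of both changed by 0.55. Of the 6 members that were well above background on all 12 arrays, 6 were called, 5 lower and 1 higher, where 34.8% of all tested genes were called, 16.8% lower and 18% higher. When the slide was a block, 1 of these 6 was still called, Slc7a10, and 2.81% of all genes. Slc7a4 passed the filter only through the high group, where it is brightest, and is left out of these counts. The median change over the 6 members was -0.34, and over all tested genes it was -0.002. In 5 of the 6 the high and control arrays did not overlap, which was so for 56% of all tested genes. At 300 mg/kg 1 of the 6 was called, Slc7a10, where 13% of all genes were called, and 0 with slide as a block. At 150 mg/kg 0 of the 6 were called by limma, and 0 had an unadjusted p under 0.05, where 0.101% of all genes were called. The 3 comparisons with control share the same 3 control arrays.

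**Figure D1:**
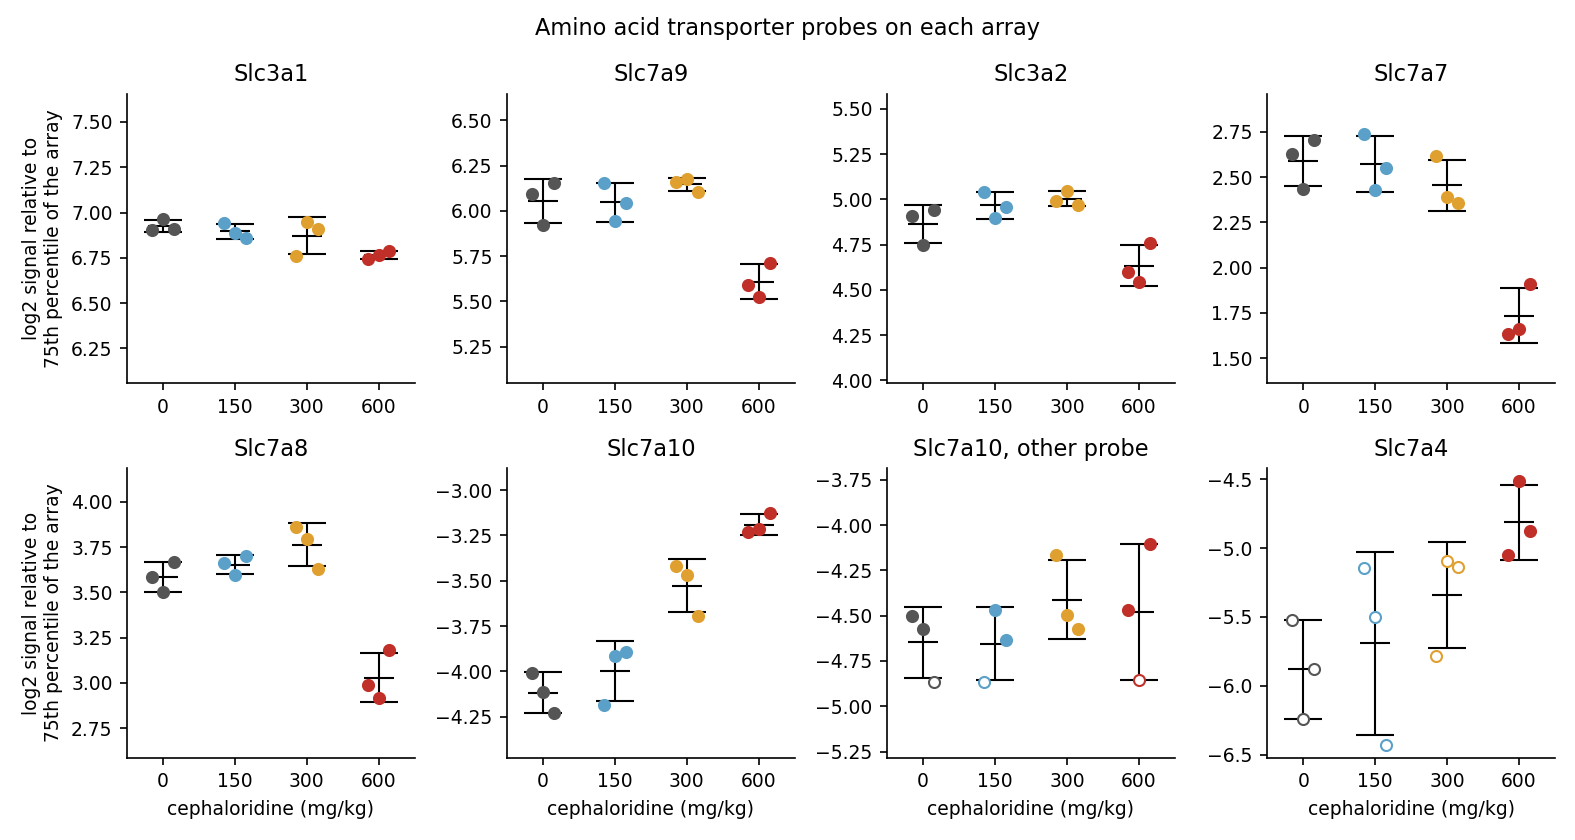
Each panel plots 1 probe on the 12 arrays, with cephaloridine dose in mg/kg on the x axis and the log2 signal relative to the array's 75th percentile on the y axis. Points are animals, open where the probe was not well above background, and bars give the mean ± SD (n = 3); the 600 mg/kg points of Slc7a7, Slc7a8 and Slc7a9 lie below all other points of their panels, and the brighter Slc7a10 probe was highest at 600 mg/kg.

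Slc3a1, also called rBAT, is the heavy chain of the cystine carrier of the brush border. Its signal was 6.90, 6.97 and 6.91 in controls, 6.94, 6.89 and 6.86 at 150 mg/kg, 6.76, 6.95 and 6.91 at 300 mg/kg, and 6.74, 6.76 and 6.79 at 600 mg/kg. The high arrays lay under all control and low arrays by a small gap, and middle 1 lay among the high arrays. The change at 600 mg/kg was -0.16 ± 0.053, a 1.12-fold fall with an adjusted p of 0.0392 in limma. This was the smallest change among the members: 50.6% of all tested genes changed by more. The call was lost in 8 of the 12 fits that left out 1 array (each of controls 1 to 3, low 2, low 3 and high 1 to 3; highest adjusted p 0.122). The slide block left a change of -0.14 and an adjusted p of 0.525.

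Slc7a9 is a light chain that Slc3a1 carries to the surface. Controls read 6.09, 5.92 and 6.15, the low group 6.15, 5.94 and 6.04, the middle group 6.16, 6.17 and 6.10, and the high group 5.59, 5.52 and 5.71. The 3 high animals were below the other 9, which overlapped one another. The mean was 6.06 ± 0.12 (SD, n = 3) in controls and 5.61 ± 0.10 at 600 mg/kg. The change of -0.45 ± 0.076 was a 1.36-fold fall with an adjusted p of 0.00176 and a 95% interval from -0.62 to -0.28. It was called in all 12 fits without 1 array. With slide as a block it was -0.22 with an adjusted p of 0.512; on slide 4, where high and middle animals were hybridised together, the high mean was below middle 3 by -0.49.

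The change plot shows both chains of this brush border pair to the left of 0 at the highest dose, with the light chain further out. Taken on each array, Slc7a9 minus Slc3a1 was lower by -0.29 at 600 mg/kg than in controls. Relative to the control mean, this difference ran from -0.17 to 0.12 in controls and from -0.37 to -0.20 at 600 mg/kg, with no overlap. The exact permutation test gave p = 0.1, two-sided, which is the smallest that 3 against 3 animals can give and so cannot pass 0.05. Controls and high animals shared no slide, and this difference was not fitted with slide as a block. Under that block the separate changes were -0.22 for Slc7a9 and -0.14 for Slc3a1. Slc7a13, an Slc7 carrier outside the members, changed by -0.08 ± 0.075 at 600 mg/kg and was not called (adjusted p = 0.461 in limma).

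**Figure D2:**
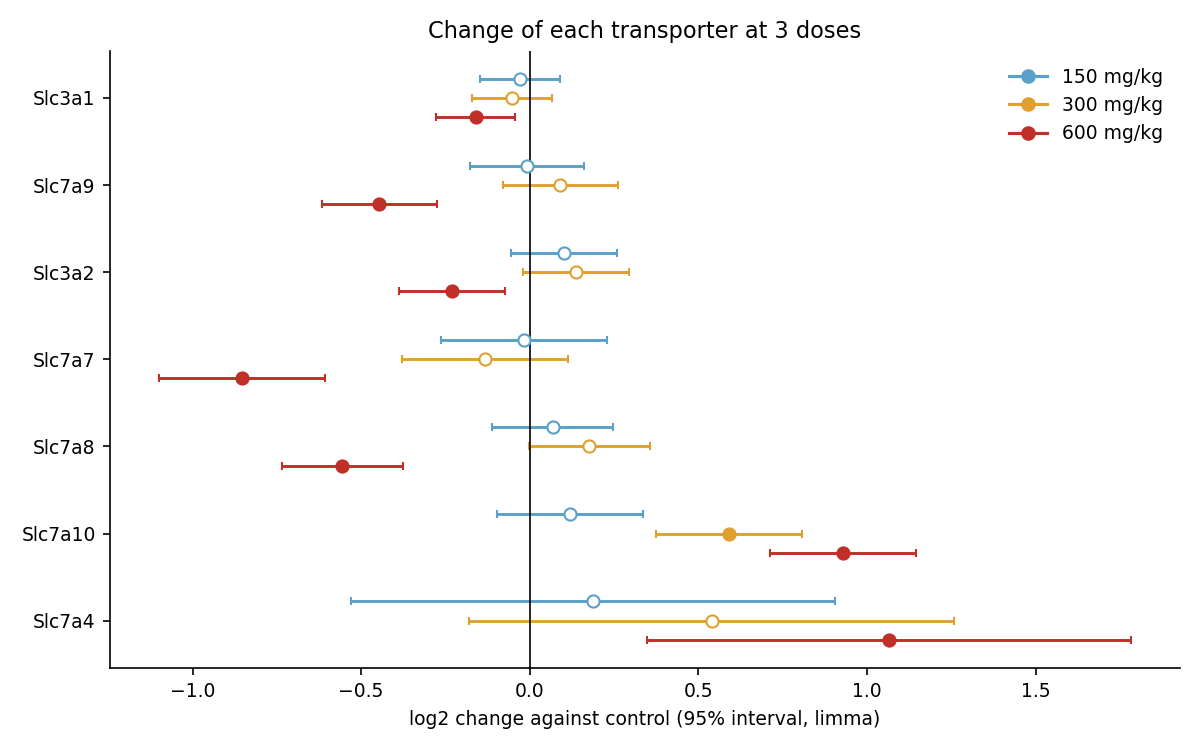
For each transporter the log2 change against control is plotted at 150, 300 and 600 mg/kg, with 95% intervals from limma; filled points had an adjusted p under 0.05 and open points did not. At 600 mg/kg, 5 genes lie to the left of 0 and Slc7a10 (brighter probe) to the right; for Slc7a4 the fitted change is no measured fold, because its control, low and middle arrays were not well above background, and its filled point follows from a filter passed through the high group alone.

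Slc3a2, known as 4F2hc or CD98, is the heavy chain shared by the basolateral light chains and by many other cells. Its control arrays gave 4.91, 4.75 and 4.94, the low arrays 5.04, 4.90 and 4.96, the middle arrays 4.99, 5.05 and 4.97, and the high arrays 4.60, 4.54 and 4.76. High 3 lay just above control 2, so the high and control groups overlapped, while all high arrays were below all low and middle arrays. The change at 600 mg/kg was -0.23 ± 0.071, a 1.17-fold fall with an adjusted p of 0.0279. Leaving out control 1, control 3, high 1 or high 2 ended the call, with adjusted p up to 0.0966. The slide block left a change of -0.06 and an adjusted p of 0.862. Against the middle group the fall was larger, at -0.37 ± 0.071 with an adjusted p of 0.00491.

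Slc7a7, or y+LAT1, exchanges dibasic amino acids for neutral ones at the basolateral membrane, and its loss causes lysinuric protein intolerance. In controls it read 2.63, 2.44 and 2.70, at 150 mg/kg 2.74, 2.43 and 2.55, at 300 mg/kg 2.62, 2.39 and 2.36, and at 600 mg/kg 1.64, 1.66 and 1.91. The 3 high arrays stood apart from the other 9, with the nearest control above the highest of them by 0.53. The mean fell from 2.59 ± 0.14 to 1.73 ± 0.15 (SD, n = 3). This was the largest fall among the members, -0.85 ± 0.11 with a 95% interval from -1.10 to -0.61 and an adjusted p of 0.000416; 2.93% of all tested genes changed by more. The call held in the 12 fits without 1 array. With slide as a block the change was -0.46 and its adjusted p 0.336, and on slide 4 the high animals were below middle 3 by -0.62.

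Slc7a8, or LAT2, is the basolateral exchanger of neutral amino acids. Its values were 3.59, 3.50 and 3.67 in controls, 3.66, 3.60 and 3.70 in the low group, 3.86, 3.79 and 3.63 in the middle group, and 2.99, 2.92 and 3.18 in the high group. Again all 3 high animals were below every other animal. The middle group had the highest mean, 3.76 ± 0.12 against 3.58 ± 0.08 in controls (SD, n = 3), but the groups overlapped, and the difference of 0.18 (95% interval -0.003 to 0.36) had an adjusted p of 0.17. At 600 mg/kg the change was -0.56 ± 0.081 against control with an adjusted p of 0.000765 and a 95% interval from -0.74 to -0.38. Each of the 12 fits without 1 array kept that call. With slide as a block it was -0.34 with an adjusted p of 0.335, and within slide 4 the high animals were below middle 3 by -0.60.

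The fitted changes of both light chains were larger than that of the heavy chain they share, each read on its own probe. Slc7a7 minus Slc3a2, taken on each array, was lower by -0.62 at 600 mg/kg, with controls from -0.03 to 0.04 around their mean and high animals from -0.69 to -0.57. For Slc7a8 minus Slc3a2 the shift was -0.32, with controls from -0.04 to 0.04 and high animals from -0.35 to -0.30. In neither pair did the groups overlap, and the spread between animals was narrower than for either gene alone. The exact permutation p was 0.1 for each of the 4 pairs examined, and 0.1 after adjustment over them, again the floor of this design. None of the 4 pairs was fitted with slide as a block. Under that block the separate changes were -0.46 for Slc7a7, -0.34 for Slc7a8 and -0.06 for Slc3a2.

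**Figure D3:**
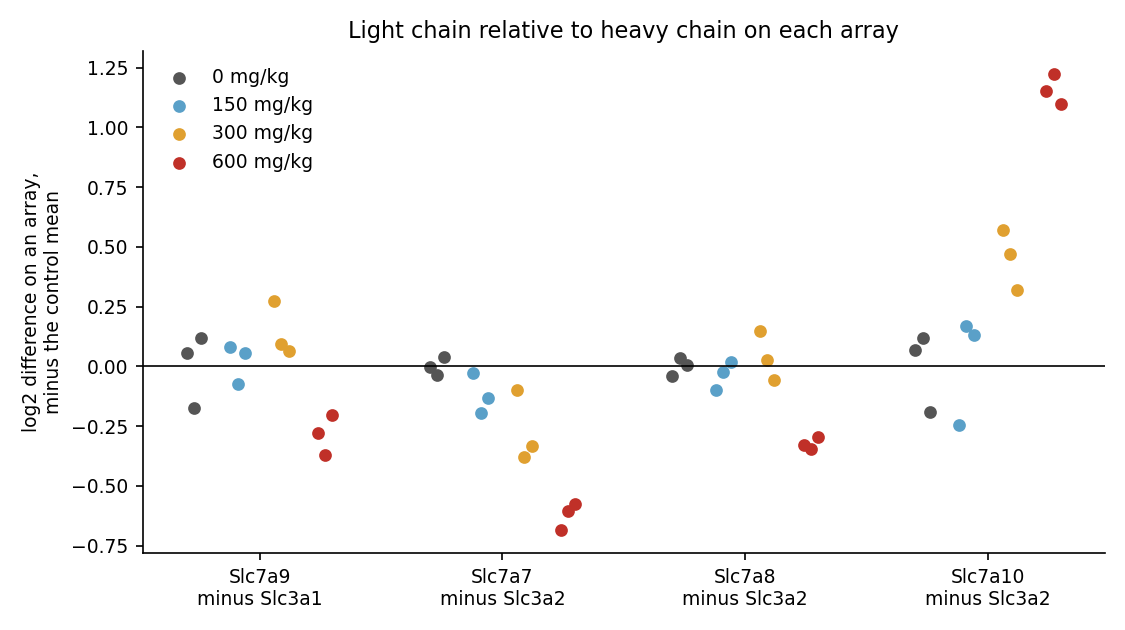
For 4 pairs on the x axis, the log2 signal of the light chain minus that of its heavy chain on the same array is plotted on the y axis after the control mean was subtracted; each point is 1 animal and colours are doses. At 600 mg/kg the points of Slc7a9, Slc7a7 and Slc7a8 lie below the control points and those of Slc7a10 (brighter probe) above them. Controls and high animals shared no slide.

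Slc7a10, or Asc-1, exchanges small neutral amino acids such as alanine, serine and cysteine and also pairs with Slc3a2. Its brighter probe read -4.01, -4.12 and -4.23 in controls, -4.19, -3.92 and -3.89 at 150 mg/kg, -3.42, -3.47 and -3.69 at 300 mg/kg, and -3.23, -3.21 and -3.12 at 600 mg/kg. The high animals were above the middle animals and these above all low and control animals, which overlapped each other. As processed intensities the group means were 37.8, 40.9, 57.9 and 72.5 in order of dose, all of them well above background. The change was 0.59 ± 0.097 at 300 mg/kg (1.51-fold, adjusted p = 0.0075) and 0.93 ± 0.097 at 600 mg/kg (1.90-fold, adjusted p = 0.000127, 95% interval 0.71 to 1.14). Slc7a10 minus Slc3a2 was higher by 1.16 at 600 mg/kg, with high animals from 1.10 to 1.23 and controls from -0.19 to 0.12 around their mean; it was 0.63 with normexp background correction and 0.78 with the mean of the 2 Slc7a10 probes.

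At 600 mg/kg the change of the brighter Slc7a10 probe with slide as a block was 0.90 with an adjusted p of 0.0386. The blocked change at 300 mg/kg was 0.39 with an adjusted p of 0.178. The second, dimmer probe of Slc7a10 did not follow the first. It read -4.50, -4.57 and -4.87 in controls, -4.87, -4.47 and -4.63 at 150 mg/kg, -4.16, -4.49 and -4.58 at 300 mg/kg, and -4.47, -4.86 and -4.11 at 600 mg/kg. All 4 groups overlapped, and this probe was well above background on 2, 2, 3 and 2 of the 3 arrays of the groups in order of dose. In a fit of 24728 probes, each on its own, its change at 600 mg/kg was 0.17 ± 0.19 with an adjusted p of 0.522. With the mean of both probes in place of the brighter one, Slc7a10 changed by 0.55 at 600 mg/kg with an adjusted p of 0.0102, and by 0.41 at 300 mg/kg with an adjusted p of 0.0677. With normexp background correction of the mean signal, the change of the brighter probe at 600 mg/kg was 0.43, still called.

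Slc7a4 belongs to the cationic amino acid transporter branch of the family, and its substrate is not settled. Its probe was well above background on the 3 high arrays and on no other. The values were -5.52, -6.24 and -5.87 in controls, -5.14, -5.50 and -6.43 in the low group, -5.78, -5.10 and -5.14 in the middle group, and -5.05, -4.52 and -4.87 in the high group. The high arrays were the 3 highest, with middle 2 just below high 1. The high mean was also set against the lowest signal that counted as well above background on each array. It was 1.07-fold above that limit in control, 1.11-fold in low and 1.14-fold in middle. High 1 (-5.05) lay under all of these limits (-4.91, -4.96 and -5.01). These folds rest on the high arrays that brought the gene through the filter, and they give no support to a difference. Since the gene was tested only because its high arrays cleared background, its p-value (adjusted p = 0.0274 in limma) gives no support to a difference; it was 0.0981 at most without 1 array and 0.26 with slide as a block.

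Between the middle and high doses 5 of the 6 members were called, 4 lower and 1 higher, where 22.5% of all genes were called, 12.9% lower and 9.61% higher. The 4 lower were Slc7a8 (-0.73, adjusted p = 0.000275), Slc7a7 (-0.72, 0.00162), Slc7a9 (-0.54, 0.00107) and Slc3a2 (-0.37, 0.00491). Slc7a10 was higher by 0.34 with an adjusted p of 0.0321, a call that was lost without middle 3, high 1, high 2 or high 3 (adjusted p up to 0.0996), and that was 0.14 (0.516) with the mean of its 2 probes. With slide as a block, where this comparison comes down to the 3 high animals against middle 3 on the slide they share, Slc7a8 was lower by -0.60 (adjusted p = 0.0238), Slc7a9 by -0.49 (0.0344) and Slc7a7 by -0.62 (0.0472). Slc7a10 was higher by 0.50 there (0.0211). These p-values set 3 animals against 1, with the spread taken from the arrays of the other slides as well, so the lone middle animal is assumed to vary like the rest. The blocked change of Slc3a2 was -0.33 with an adjusted p of 0.091. Slc3a1 differed by -0.11 without the block (adjusted p = 0.179), and Slc7a4 by 0.53 (0.28).

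Below 600 mg/kg the brush border and basolateral pairs gave no call. At 300 mg/kg the changes against control were -0.05 for Slc3a1, 0.09 for Slc7a9, 0.14 for Slc3a2, -0.13 for Slc7a7 and 0.18 for Slc7a8, with adjusted p from 0.17 to 0.533. For Slc7a4, not well above background in either group, the adjusted p was 0.292. The middle and control arrays did not overlap for 2 of the 6 members, Slc7a10 and Slc3a2, as for 32.7% of all genes. For Slc7a7 the 95% interval at 300 mg/kg, -0.38 to 0.11, excludes a fall of the size seen at 600 mg/kg. At 150 mg/kg the fitted changes of the 7 members ran from -0.03 to 0.19, with adjusted p from 0.676 to 0.983. Between 150 and 300 mg/kg 0 of the 6 members were called by limma, where 0.231% of all genes were; Slc7a10 had an unadjusted p of 0.000643, with a change of 0.47 and an adjusted p of 0.0962, and was the only member with an unadjusted p under 0.05.

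Within the slides that held neighbouring doses, the brighter probe of Slc7a10 was higher both times that a middle animal was set against a low one. Slc7a10 was higher in middle 1 than in low 2 by 0.50 on slide 2, and in middle 2 than in low 3 by 0.42 on slide 3. On slide 1 low 1 differed from the mean of the controls by -0.07. The 5 members that were lower at 600 mg/kg differed by -0.16 to 0.27 on slides 2 and 3. Each of these values has 1 dosed animal of a group on its slide and no replicate.

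Among the members, Slc7a9 and Slc3a2, which do not form a carrier together, had the smallest distance over the 12 arrays. After centring each gene, they differed by 0.083 on average (root mean square, log2). Slc7a9 and Slc7a8 followed at 0.096. Slc7a7 and Slc7a8 differed by 0.15, while the widest distance was 0.83, between Slc7a7 and Slc7a4. Slc7a4 was well above background on the 3 high arrays alone, so its distances rest mostly on signal near background. Slc3a1 and Slc3a2 differed by 0.13, which is more than the SD of Slc3a1 itself (0.081) and so shows no likeness. Genes that move little are close to each other by this measure, so each distance is read against the member's own SD over the 12 arrays. That SD was 0.23 for Slc7a9, 0.17 for Slc3a2 and 0.31 for Slc7a8, so the smallest distance need not be the closest likeness.

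Over the 10498 other nameable genes well above background on all arrays, the closest to Slc7a7 (own SD 0.39) were Dnah7, a dynein heavy chain, at 0.077, Susd2 at 0.087 and the phosphate carrier Slc34a3 at 0.091. For Slc7a8 (0.31) they were Adh1c, an alcohol dehydrogenase, at 0.082, Abhd17c at 0.083 and Gas2 at 0.084. Slc7a9 (0.23) lay closest to Dram2 at 0.041, the lysosomal beta-galactosidase Glb1 at 0.048 and Slc43a2, a carrier of large neutral amino acids, at 0.049. Slc3a2 (0.17) was nearest to Mtarc2 at 0.036, Scpep1 at 0.041 and Rmdn1 at 0.043. For Slc3a1, whose own SD was 0.081, the nearest were the gluconeogenic enzyme Fbp1, Eid1 and the glutathione transferase Gsta2, each at 0.035. The brighter probe of Slc7a10 (0.40) was nearest to Anxa7 and Scgb3a2, both at 0.11, and the clock gene Cry1 at 0.14. Slc7a4 (0.57), near background on most arrays, had no close neighbour. Its nearest were Slc7a5 at 0.33, and Zfp36l3 and Mthfd1l, both at 0.35.

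Other carriers of amino acids and small peptides, with collectrin, an accessory protein of Slc6a19, included both higher and lower genes at 600 mg/kg. Of 44 listed genes 41 were on the array and 29 were tested; 6 were higher, 9 lower and 14 not called, with a median change of -0.01, where 18% of all tested genes were higher and 16.8% lower. Under the slide block 0 of the 29 were called in either direction. The largest rises were in Slc7a5 (LAT1, the other large neutral amino acid exchanger that pairs with Slc3a2), Slc1a5 (a glutamine and neutral amino acid exchanger), Slc1a3 (a glial-type glutamate carrier) and Slc7a1 (the general cationic amino acid transporter). Slc7a5 read -3.97, -4.22 and -4.03 in controls and -3.32, -3.21 and -3.02 at 600 mg/kg, a change of 0.89 ± 0.10 with an adjusted p of 0.000241. Slc1a5 changed by 0.85 ± 0.061 (1.68e-05), Slc1a3 by 0.63 ± 0.071 (0.000194) and Slc7a1 by 0.59 ± 0.044 (1.94e-05). With normexp background correction the changes were smaller for Slc7a5 (0.34), Slc1a3 (0.38) and Slc7a1 (0.39), each still called, and 0.84 for Slc1a5. The slide block gave 0.86 for Slc7a5 (adjusted p = 0.136), 0.75 for Slc1a5 (0.0543), 0.51 for Slc1a3 (0.143) and 0.49 for Slc7a1 (0.0616). In each of the 4 the high animals were above all controls. Slc7a5 and the brighter probe of Slc7a10 were thus higher, and Slc7a7 and Slc7a8 lower, in the fit without the block, and all 4 pair with Slc3a2.

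The largest falls were in Slc38a7, a lysosomal glutamine and asparagine exporter (-0.59 ± 0.084, adjusted p = 0.000675), Cltrn, or collectrin (-0.54 ± 0.083, 0.000964), the taurine carrier Slc6a6 (-0.50 ± 0.11, 0.00661) and the mitochondrial ornithine carrier Slc25a15 (-0.44 ± 0.064, 0.000729). Collectrin carries Slc6a19 to the brush border in the kidney. It read 6.52, 6.47 and 6.55 in controls and 5.96, 5.95 and 6.01 at 600 mg/kg, with no overlap. The slide block gave changes of -0.15 for Slc38a7 (adjusted p = 0.558), -0.14 for Cltrn (0.439), -0.91 for Slc6a6 (0.0929) and -0.49 for Slc25a15 (0.146). On slide 4 the 3 high animals lay above middle 3 for Slc7a5 (0.60), Slc1a5 (0.59), Slc1a3 (0.52) and Slc7a1 (0.62), and below it for Slc38a7 (-0.29), Cltrn (-0.42), Slc6a6 (-0.48) and Slc25a15 (-0.45), as means of the 3.

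**Figure D4:**
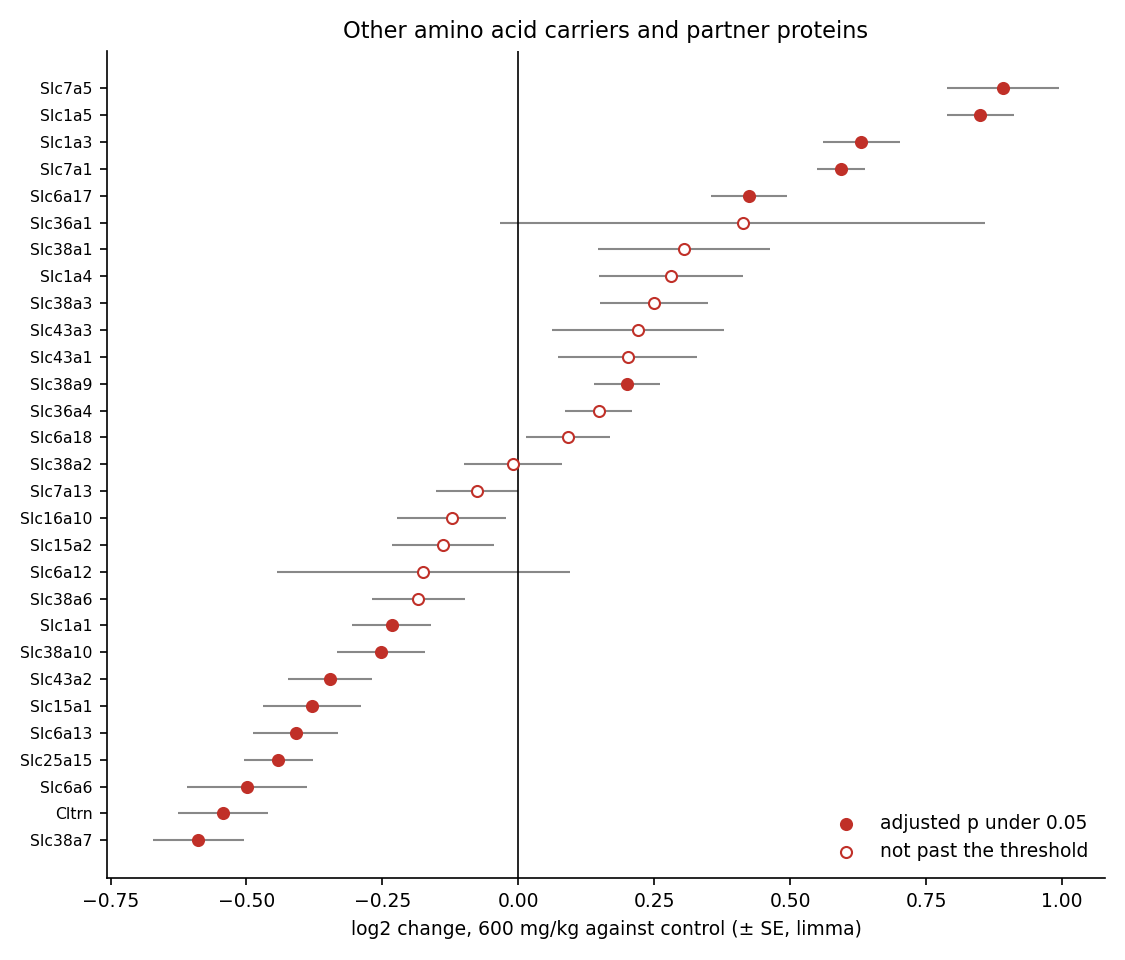
The 29 tested carriers and partner proteins outside the 8 members are listed on the y axis, with the log2 change at 600 mg/kg against control on the x axis (± SE from limma, n = 3 a group). Filled points had an adjusted p under 0.05; Slc7a5 and Slc1a5 lie furthest to the right, and Slc38a7 and Cltrn furthest to the left.

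Markers of other cells and of the proximal tubule itself moved at the same dose, and their part in the transporter changes was not tested. The 8 proximal tubule markers were well above background on all 12 arrays. At 600 mg/kg 6 were lower and 2 not called, with a median of -0.45. Their summed linear signal, in multiples of the array's 75th percentile, ran from 499 to 517 in controls, 479 to 519 at 150 mg/kg, 472 to 481 at 300 mg/kg and 371 to 386 at 600 mg/kg. With slide as a block 3 of the 8 were lower, and on slide 4 the high mean was below middle 3 for all 8, by -0.13 to -0.53. Each sum takes in every listed gene that a probe represented, tested or not, so bright genes weigh most in it. The macrophage markers Adgre1, Cd14, Csf1r and Itgam, 4 of 5 tested, were higher. The sum over the 6 listed macrophage genes was 4.08 to 4.39 in controls and 5.77 to 6.01 at 600 mg/kg. The endothelial markers Pecam1, Kdr, Emcn and Tek, 4 of 5, were lower. Their list summed to 53.6 to 56.6 in controls and 42.6 to 45 at 600 mg/kg, mostly from Kdr (1.27-fold lower). The distal convoluted tubule markers Slc12a3 (1.31-fold), Calb1 (1.61-fold) and Trpm6 (1.18-fold), 3 of 3, were higher. Their list summed to 25.9 to 27.3 in controls and 39.6 to 46.8 at 600 mg/kg, mostly from Calb1. Those of the collecting duct, 3 of 6 of them higher (Scnn1g, Atp6v1b1 and Slc26a4), summed to 90.3 to 94 in controls and 96.6 to 101 at 600 mg/kg, and those of the loop of Henle, 0 of 3 called, to 318 to 345 and 343 to 355. Podocyte markers (0 of 3 called) gave 4.19 to 4.43 and 4.16 to 4.32. T cell markers (Cd3d higher and Cd8a lower of 3) summed to 1.09 to 1.31 and 1.23 to 1.47. Those of liver (Apob, 1 of 2, higher) gave 0.279 to 0.505 and 0.413 to 0.632, and those of the adrenal gland (Cyp17a1, 1 of 2, higher) 0.0984 to 0.196 and 0.143 to 0.152. Beside these counts stand 18% of all tested genes called higher and 16.8% lower. Under the slide block 1 of the 5 macrophage markers and 1 of the 3 distal convoluted tubule markers were higher, 0 of 5 endothelial markers lower and 0 of 6 collecting duct markers higher. The marker genes were named after their values were seen.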

How the data were processed

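RNA of 12 kidney cortices was measured on 1-colour Agilent arrays. Per the file headers, Feature Extraction 9.1.3.1 gave the processed, mean and background signals, deposited as linear intensities, and well-above-background, saturation and outlier flags of 0 or 1. In the authors' deposited value table each value is a linear ratio, obtained by dividing the processed signal (floor 5) by 1 constant per array; every probe spotted once lay within 0.1% of that rule. It served as an alternative.

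Here the log2 processed signal was taken, spots of a probe were averaged without outlier spots, and each array's 75th percentile was subtracted. Rows were matched to RefSeq names by accession (10735 probes), current symbol (5571) or older symbol (3729), and 20977 had no match. A gene was represented by its brightest probe (mean of the 12 arrays). The 20760 genes that cleared background on each of the 3 arrays in 1 or more groups were tested with limma 3.58.1 in R 4.3.3, 1 mean per group, two-sided, with Benjamini-Hochberg adjustment over all of them. Replicates are separate animals; their number limits the precision. A probe named Lat2 stands for a T cell linker protein and was not used for Slc7a8.

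The comparison of a dim probe with the background limit takes mean normalized log2 values: the bright group's mean against, on each dim array, the higher of the probe's own value and the lowest value among probes well above background. Partner differences were tested by exact permutation. Of the other carriers, up to 4 rises and 4 falls were named, the largest among those called with groups not overlapping, with Cltrn; for likeness, the 3 nearest genes per member. The members and lists were chosen with earlier results of these data known. Lists were other amino acid carriers and markers of proximal tubule, loop of Henle, distal convoluted tubule, collecting duct, podocytes, endothelium, macrophages, T cells, liver and adrenal gland. Alternatives were quantile, median and normexp processing, the authors' table, other probe filters and rules, other fits and blocks, and leaving out each array. A gene of the carrier list is not reported here. The script was tested on simulated data.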

Additional observations from a re-analysis of the deposited data

How the results depend on the processing

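At 600 mg/kg against control, Slc7a7, Slc7a8 and Slc7a9 were called in 25 of 26 alternatives each (not with slide as a block), Slc7a10 in 26 of 26, Slc3a1 in 12 and Slc3a2 in 17. All those of Slc7a10 used its brighter probe or the mean of both probes. Its second probe alone was not called there (0.17, adjusted p = 0.522 in limma). Members called there, with Slc7a4 counted though it passed the filter only through the high group, numbered 7, but 4 with no filter on dim probes, 1 with slide as a block, and 4 to 7 when 1 array was left out (4 without control 3 and 4 without high 2); the members called between 300 and 600 mg/kg numbered 4 to 6 in the same fits, and the call of Slc7a10 there was lost in 10 of 26 alternatives. Besides the fits named in the report, Slc3a1 was not called with a median shift (adjusted p = 0.12), normexp (0.0626), the authors' table (0.121), no filter (0.0962) or the replicate block (0.0571), and Slc3a2 not with a median shift (0.0592), the authors' table (0.061), no filter (0.0683) or only the groups compared (0.0593). At 300 mg/kg 0 members were called with the mean of a gene's probes, with only the groups compared or with slide as a block. Replicate numbers did not pair the animals (same-number correlations -0.225 to 0.116, 1 of 18 over 0.1; 2 of 12 arrays correlated best with their own number); with the replicate block 6 members were called at 600 mg/kg, 1 at 300 mg/kg and 4 between these doses.

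Partner differences kept their direction in the 5 other settings tried for them and with each of 6 arrays left out. The slide block was not among these settings. Slc7a8 minus Slc3a2 was -0.39 with normexp, and Slc7a10 minus Slc3a2 0.63 with normexp and 0.78 with the mean of its probes. Alternatives for the other carriers and markers were added after seeing the data: 9 other carriers were called higher with array weights, and 0 higher and 0 lower with slide as a block. The reversed values were all of uncalled changes, and the cause was not tested. At 300 mg/kg Slc7a7 was 0.17 with slide as a block, and Slc3a1 was -0.093 to 0.0037 without 1 array (above 0 without middle 1). At 150 mg/kg Slc3a1 was 0.023 with normexp, 0.017 with slide and 0.0012 with scan day as a block; Slc7a9 was 0.099 with slide, 0.013 with scan day and 0.019 with array weights, and -0.077 to 0.043 without 1 array. Slc7a7 was 0.15 with slide and 0.015 with array weights, and -0.10 to 0.056 without 1 array. Slc7a10 was -0.069 with slide, and Slc7a4 was -0.087 to 0.56 without 1 array (below 0 without low 1). Between 150 and 300 mg/kg Slc3a1 was 0.0073 with a median shift, 0.0089 with the authors' table and -0.063 to 0.033 without 1 array (above 0 without middle 1). Slc3a2 was -0.020 with quantile scaling, Slc7a7 0.015 with slide, and Slc7a4 -0.016 to 0.63 without 1 array (below 0 without low 3). Of all calls at 300 mg/kg, 63.1% were higher, and 73.8% with a median shift or 74% with the authors' table. Signal near background limits Slc7a4 and the second Slc7a10 probe.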

Other observations

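At 300 mg/kg, 5 of the 29 other tested carriers were higher than in controls and 0 lower, where 13% of all genes were called, and with slide as a block 0 of the 29 were called; the 5 were named after their values were seen. They were Slc15a1, the peptide carrier PEPT1 (0.37 ± 0.090, adjusted p = 0.0278), Slc6a17 (0.35 ± 0.070, 0.0137), the lysosomal arginine sensor Slc38a9 (0.28 ± 0.061, 0.0183), Slc1a5 (0.26 ± 0.061, 0.0249) and the glutamate and cystine carrier Slc1a1 (0.25 ± 0.072, 0.0457). Of these, 2 were lower than control at 600 mg/kg: Slc15a1 changed by -0.38 (adjusted p = 0.00904) and Slc1a1 by -0.23 (0.0294). Slc15a1 read 2.53, 2.43 and 2.66 in controls, 2.71, 2.58 and 2.79 at 150 mg/kg, 3.03, 2.89 and 2.80 at 300 mg/kg and 2.05, 2.14 and 2.30 at 600 mg/kg. The middle animals were the 3 highest and the high animals the 3 lowest of the 12. Slc1a1 read 1.92, 1.75 and 1.82 in controls, 2.03, 2.21 and 2.01 at 300 mg/kg and 1.57, 1.56 and 1.66 at 600 mg/kg, again with no overlap between these groups. Between 300 and 600 mg/kg the falls were -0.74 for Slc15a1 (adjusted p = 0.000457) and -0.49 for Slc1a1 (0.00135). These p-values come from limma with n = 3 a group.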
